A study of Mus musculus with 8 samples.

Results

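The proteasome genes were taken from the gene table by symbol, namely every gene written Psma, Psmb, Psmc, Psmd, Psme, Psmf or Psmg with a number after it. The interferon-inducible subunits Psmb8, Psmb9 and Psmb10 and 5 pseudogene symbols were left out, and 48 of the 53819 genes in the table were members. By role they were 7 alpha and 7 beta subunits of the 20S core, 9 base and 8 lid subunits of the 19S cap, 5 activators, 1 inhibitor, 7 assembly chaperones, 2 tissue-restricted core subunits (Psma8 and Psmb11) and 2 genes named for proteins that interact with a subunit (Psmc3ip and Psme3ip1).

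The study asked how bilirubin, a product of heme breakdown, alters macrophages. Bone marrow of 4 female BALB/cJ mice aged 8 weeks was grown in M-CSF, the growth factor of macrophages (25 ng/mL for 5 days), to give bone marrow-derived macrophages (BMDM). One culture of each mouse then received 2.5 µM bilirubin and another received vehicle (DMSO) for 48 h, and poly(A) RNA of all 8 cultures was sequenced. BMDM are macrophages raised in a dish from marrow cells with a single growth factor.

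The proteasome is the barrel-shaped protease that degrades ubiquitin-tagged proteins. Its 20S core is built of outer alpha rings that gate the entrance and inner beta rings that carry the proteolytic sites. The 19S cap binds ubiquitin chains, removes them and unfolds the substrate with its ring of ATPases, while 11S activators such as PA28 open the core without ubiquitin or ATP. In macrophages the proteasome also degrades inhibitors of NFκB and produces peptides for MHC class I, for which interferon replaces the catalytic beta subunits and raises PA28.

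Proteasome genes are known targets of NRF1 (Nfe2l1), and some of NRF2 (Nfe2l2), factors that bind the antioxidant response element. The core letters of that element, TGACNNNGC, were therefore searched on both strands in the 250 bases before each start in RefSeq promoter sequences (table build GRCm38.p6, positions below from a match to GRCm39). RefSeq held 44 promoters for 40 of the 48 members. The letters were found in 5 of these 44 (11.4%), beside 10.2% of all 32851 promoters, so the share in members was near that of all genes. The 5 stretches are shown so that members with these letters can be set beside their expression values, with the matching letters in capitals and up to 10 bases on each side, read in the direction of the gene.
Psmb5, chr14:54855481-54855509, minus strand: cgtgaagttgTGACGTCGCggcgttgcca
Psmb6, chr11:70416164-70416192, plus strand: ctaaagagagTGACGGAGCgctttacgac
Psmc6, chr14:45567044-45567072, plus strand: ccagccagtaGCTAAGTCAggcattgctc
Psmd12, chr11:107370104-107370125, plus strand: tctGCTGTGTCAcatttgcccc
Psmd9, chr5:123366212-123366240, plus strand: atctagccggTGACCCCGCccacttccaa
The match lay on the gene's own strand in Psmb5, Psmb6 and Psmd9, and on the opposite strand in Psmc6 and Psmd12. It ended 39 bases before the start of Psmb5, 1 before that of Psmb6, 23 before that of Psmd9, 219 before that of Psmc6 and 239 before that of Psmd12. TGAC is also part of the sites of AP-1 and of cAMP-responsive factors, so the letters do not name 1 factor. None of these 5 genes passed the test for a change with bilirubin, which 7.53% of all tested genes did. CCAAT, the box bound by NF-Y, was found on either strand in 15 of the 44 member promoters (34.1%), beside 33.8% of all. Of the members called with bilirubin, Psma6, Psma7 and Psmd10 had the box, and Psmd8 and Psme2 did not. The other members with it, such as Psma1, Psmb3 and Psmc1, were not called. A link between the box and the calls was not tested.

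Vehicle libraries held 37747315 to 47071714 counts on genes and bilirubin libraries 34142781 to 41054034. Mouse 1 had both the deepest vehicle and the shallowest bilirubin library. The macrophage markers fixed for the check (Adgre1, Csf1r, Cd68, Itgam, Mertk, Fcgr1, Lyz2 and Cd14) were all detected, with a summed level of 24110 to 24450 CPM (counts scaled to library size by the TMM method of edgeR) in vehicle and 28570 to 30660 in bilirubin cultures. Of these 8 markers 4 (Adgre1, Itgam, Lyz2 and Cd14) were called higher (edgeR adjusted p under 0.05), beside 4.49% of all tested genes. The other 4 were not called, with log2 fold changes of -0.02 for Csf1r, -0.16 for Cd68, -0.15 for Mertk and -0.20 for Fcgr1. Lyz2 made up most of the summed level, at a mean of 19150 CPM in vehicle and 24370 CPM in bilirubin cultures. All 6 lymphocyte markers had 3 counts or fewer in every library, and none of the 5 dendritic or 6 erythroid and mast cell markers had enough counts to be tested. The 7 neutrophil markers summed to 10.9 to 13.7 CPM in vehicle and 19.1 to 31.9 CPM in bilirubin cultures. Nearly all of that was S100a8, called higher, at a mean of 11.5 CPM in vehicle and 24.4 CPM in bilirubin cultures. No other neutrophil marker had a mean above 0.259 CPM in either group. The 5 stromal markers summed to 3.81 to 8.87 and 3.16 to 9.22 CPM. The part of the neutrophil and stromal markers in the results on the proteasome was not tested. In RNA from whole cultures, fewer cells of a kind and less RNA per cell cannot be told apart.

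Proteasome expression moved little with bilirubin. Of the 47 members with enough counts to be tested, 5 were called higher and 0 lower when edgeR's quasi-likelihood test set each bilirubin culture against the vehicle culture of its mouse (Benjamini-Hochberg adjusted p under 0.05 over the 13722 tested genes). That is 10.6% of the members, beside 7.53% of all tested genes, 4.49% called higher and 3.04% called lower. The members' share was thus near the background. An unadjusted p under 0.05 was found for 9 of the 47, a share close to the 20.8% of all tested genes, and all 9 were above zero. DESeq2 and limma voom called the same 5 and also 0 lower. The number of calls depended on single mice, for the members as for all genes. Without mouse 1, 8 members were called (13.9% of all genes), and without mouse 2 only Psme2 was (4.58% of all genes). Without mouse 3 or mouse 4, 0 members were called (2.75% and 3.21% of all genes), and 6 and 5 had an unadjusted p under 0.05. With an offset for transcript length only Psme2 was called (4.22% of all genes), with library size alone 4 members were (7.89%), and with treatment alone in the model Psmd10 and Psmd8 were (5% of all genes). With a mouse left out the log2 fold changes moved less. They ran from 0.16 to 0.17 for Psma6, 0.18 to 0.19 for Psma7 and 0.14 to 0.17 for Psmd8. Psme2 ran from 0.22 to 0.30 and Psmd10 from 0.31 to 0.45. With the length offset Psma6 fell to 0.12, and with library size alone Psma7 and Psmd8 were at 0.16 and 0.13.

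The 5 genes called higher had different roles. They were the alpha ring subunits Psma7 and Psma6, the lid subunit Psmd8, the PA28 subunit Psme2 and the base chaperone Psmd10. None of the 9 base or 7 beta subunits was called, by edgeR, DESeq2 or limma voom, beside 7.53% of all tested genes with edgeR. Of the base 0 and of the beta subunits 1 (Psmb6) had an unadjusted edgeR p under 0.05, beside 20.8% of all tested genes. Whether these small classes differ from those shares was not tested.

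**Figure D1:**
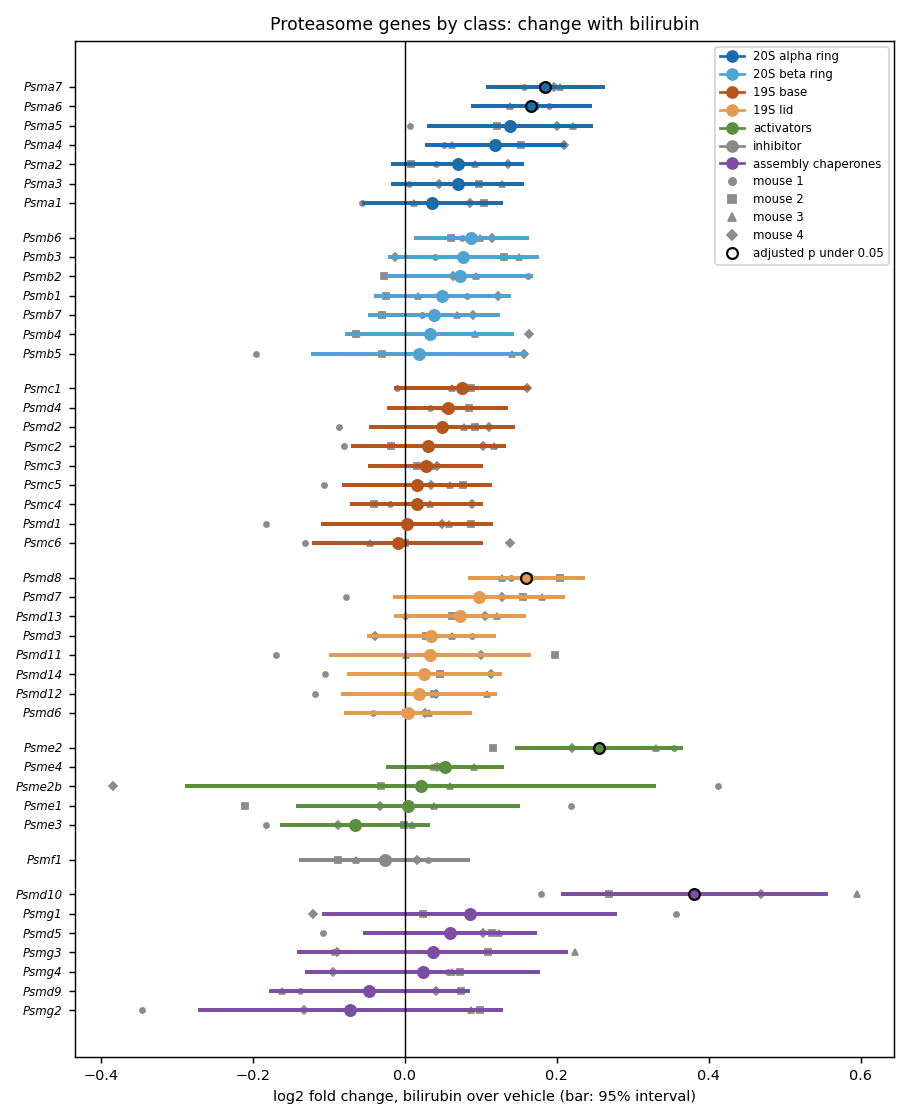
Log2 fold change of bilirubin over vehicle (x axis) for the subunits, regulators and chaperones tested, grouped by class. Large points are edgeR estimates with bars for 95% intervals, small grey symbols are the 4 mice, and black outlines mark the 5 genes called; all 7 alpha ring estimates lie right of zero, and most intervals outside that ring cross it.

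The small size of the changes could be bounded. The 95% interval of the log2 fold change lay within 0.3 of zero, on either side, for 43 of the 47 tested members (91.5%) and within 0.2 for 33 (70.2%), beside 55.3% and 36.0% of all tested genes. All 31 subunits of core and cap were inside 0.3. The median standard error was 0.04 for the members and 0.07 for all tested genes, and the members were well expressed, so the tighter intervals describe precision as well as size. The median log2 fold change of the tested members was 0.04, with 42 of 47 above zero, beside a median of 0.00 and 49.3% above zero for all tested genes. With library size alone in place of TMM scaling the number above zero fell to 31 of 47, while that of all tested genes fell to 40.4% and their median to -0.03, and the share of all called genes that were higher went from 59.6% to 48.7%.

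The alpha ring had the highest class median of the core and cap. All 7 subunits had a fold change above zero, from 0.04 for Psma1 to 0.19 for Psma7 in log2 units (median 0.12), and all 7 stayed above zero under each of the 12 alternatives, other scalings included. Of the 7, 2 passed the test, beside 7.53% of all tested genes. Psma4 and Psma5 passed only where mouse 1 was left out, beside 13.9% of all genes there.

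Psma7, the alpha 4 subunit (chr2:179678155-179684421, minus strand, GRCm39), stood at 87.4, 93.2, 92.5 and 97.7 CPM in vehicle cultures (mice 1 to 4 in order, here and in later lists) and at 97.5, 106, 107 and 112 CPM in their bilirubin cultures. Bilirubin cultures were higher in all 4 mice, although the bilirubin culture of mouse 1 lay below the vehicle culture of mouse 4, so the groups overlapped. Its log2 fold change was 0.19 (SE 0.03, 95% interval 0.11 to 0.26), or 1.14-fold, with an edgeR Benjamini-Hochberg adjusted p of 0.012. Across 12 alternatives that p ran from 0.0031 to 0.107 and 7 passed.

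Psma6, the alpha 1 subunit (chr12:55431007-55467094, plus strand), stood at 79.9, 83.7, 88.2 and 89.9 CPM in vehicle and 91.2, 94.2, 97.1 and 101 CPM in bilirubin cultures. In CPM the groups did not overlap, as in Psmd8 and Psmd10, or 3 of the 47 tested members, beside 10.6% of all tested genes. In TPM, which corrects for transcript length, the groups of Psma6 overlapped, at 154.5 to 162.5 in vehicle and 159.4 to 173.5 in bilirubin cultures. The 4 mice gave nearly the same log2 difference, from 0.14 to 0.19, and the fitted fold change was 0.17 (SE 0.03, interval 0.09 to 0.24, edgeR adjusted p = 0.0202). It passed in 6 of 12 alternatives. Psma1, the alpha 6 subunit and the least changed of the ring, was at 106 to 115 CPM in vehicle and 108 to 122 CPM in bilirubin cultures, with a log2 fold change of 0.04 (interval -0.05 to 0.13).

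The beta ring lay closer to zero, with a median log2 fold change of 0.05 and a range of 0.02 to 0.09. All 7 were above zero under TMM scaling, but 6 were with library size alone, with the length offset or without mouse 3, and 5 were without mouse 4. Its catalytic subunits are the sites that proteasome inhibitors block. Psmb5, the chymotrypsin-like subunit, was at 60.0, 61.7, 60.1 and 61.3 CPM in vehicle and 52.4, 60.4, 66.3 and 68.3 CPM in bilirubin cultures. The mice went both ways, with a log2 difference of -0.20 in mouse 1 and 0.16 in mouse 4, and the fitted value was 0.02 (interval -0.12 to 0.16, edgeR adjusted p = 0.909).

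Psmb6, the caspase-like subunit and the most abundant of the core, was at 158 to 173 CPM in vehicle and 167 to 188 CPM in bilirubin cultures. It was higher in each of the 4 mice by 0.06 to 0.11 on the log2 scale, and its fold change of 0.09 (interval 0.01 to 0.16) did not pass (edgeR adjusted p = 0.161). Psmb7, the trypsin-like subunit, had a log2 fold change of 0.04 (interval -0.05 to 0.12), with 80.8 to 88.7 CPM in vehicle and 82.1 to 94.4 CPM in bilirubin cultures.

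The 19S cap had a median log2 fold change of 0.03 over its 17 subunits, beside 0.07 for the 14 of the core. Within the cap, 16 of 17 were above zero under TMM scaling and 10 with library size alone, where all genes shifted down as given above. The difference between core and cap was not tested, since subunits are not replicates. Mouse 1 differed from the other mice here. Only 4 of its 17 cap subunits were higher with bilirubin (median -0.08), against 15, 16 and 16 in mice 2, 3 and 4 (medians 0.06, 0.06 and 0.10), while 11 of its 14 core subunits were higher (median 0.04). Without mouse 1 the median of the cap was 0.06 and that of the core 0.09.

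**Figure D2:**
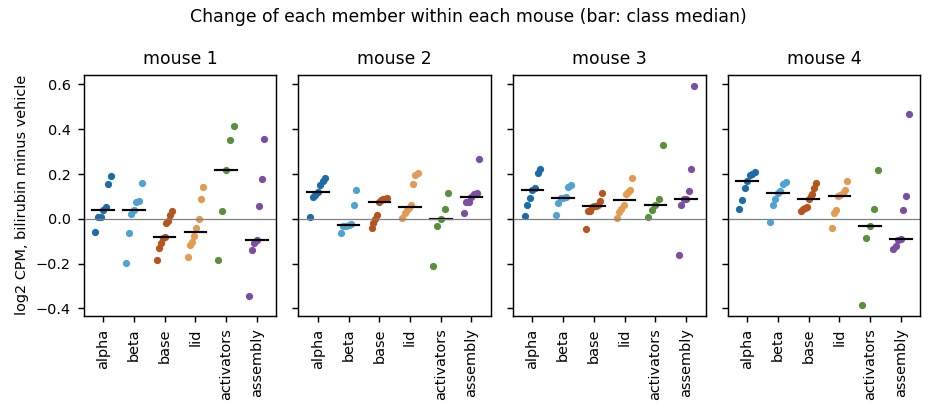
Difference in log2 CPM between the bilirubin and vehicle cultures of each mouse (y axis) for each member, by class (x axis), in a panel per mouse, with black bars for class medians. In mouse 1 most base and lid subunits lie below zero, whereas in mice 2, 3 and 4 most lie above it.

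In the base, which holds the ATPases that unfold substrates, the fold changes ran from -0.01 for Psmc6 (Rpt4) to 0.08 for Psmc1 (Rpt2). Psmc1 was at 140.1, 147, 146 and 146 CPM in vehicle and 139, 157, 152 and 163 CPM in bilirubin cultures, with an interval of -0.01 to 0.16. Psmc6 was at 72.8 to 76.5 CPM in vehicle and 69.0 to 83.4 CPM in bilirubin cultures, with an interval of -0.12 to 0.10. The groups overlapped for both genes.

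In the lid, Psmd8 (Rpn12, chr7:28873612-28880135, minus strand), a scaffold subunit, was the member called. It stood at 175, 179, 179.6 and 185 CPM in vehicle and at 193, 207, 196 and 207 CPM in bilirubin cultures. The groups did not overlap, and the 4 mice differed by 0.13 to 0.20 on the log2 scale. Its fold change was 0.16 (SE 0.03, interval 0.09 to 0.23, edgeR adjusted p = 0.0216), and 8 of 12 alternatives passed. Psmd6 (Rpn7), with the smallest fold change of the lid at 0.00 (interval -0.08 to 0.09), was at 66.9 to 69.4 CPM in vehicle and 65.0 to 70.8 CPM in bilirubin cultures.

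The fold changes of the activators differed. Psme2 and Psme1 encode the beta and alpha subunits of PA28, which form 1 ring, and lie next to each other at chr14:55824895-55829173 (minus strand) and chr14:55815190-55822034 (plus strand). Psme2 stood at 61.7, 64.3, 66.9 and 71.9 CPM in vehicle and at 78.8, 69.7, 84.1 and 83.8 CPM in bilirubin cultures, higher with bilirubin in every mouse. The groups overlapped, since the bilirubin culture of mouse 2 lay below the vehicle culture of mouse 4. Its log2 fold change was 0.26 (SE 0.05, interval 0.15 to 0.36, edgeR adjusted p = 0.0139), or 1.19-fold, and 9 of 12 alternatives passed, with adjusted p-values from 6.06e-05 to 0.125.

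Psme1 was at 70.6, 75.2, 73.0 and 82.5 CPM in vehicle and at 82.2, 65.1, 74.99 and 80.6 CPM in bilirubin cultures. It was higher in mice 1 and 3 and lower in mice 2 and 4, and its log2 fold change was 0.00 (interval -0.14 to 0.15). The log2 ratio of Psme2 to Psme1 rose in each of the 4 mice, by 0.14, 0.33, 0.29 and 0.25, a mean of 0.25 ± 0.08 (SD, n = 4). An exact two-sided permutation test of these 4 differences gave p = 0.125, the smallest that 4 pairs allow, and the ratio was chosen with the values of both genes known.

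Psme2 shares reads with its copy Psme2b (chr11:48836181-48837017, minus strand). The counts of the pair, estimated singly, added up to whole numbers in 8 of 8 libraries (tolerance 0.01), and Psme2b took 5.48% to 10.2% of the sum. How reads were split between the copies was therefore uncertain, but the summed pair still passed, with a log2 fold change of 0.24 (SE 0.05, edgeR adjusted p = 0.0218). Psme2b alone had a value of 0.02 (interval -0.29 to 0.33). Of the 47 tested members, 31 had whole counts (tolerance 0.01) in all libraries. For the remaining members without whole counts, the genes that may share their reads were not sought.

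The nuclear activators did not pass the test. Psme3, or PA28 gamma, was at 122 to 126 CPM in vehicle and 111 to 125 CPM in bilirubin cultures, with a log2 fold change of -0.07 (interval -0.16 to 0.03). Psme4, or PA200, was higher in each of the 4 mice by 0.04 to 0.09, with a fitted value of 0.05 (interval -0.02 to 0.13, edgeR adjusted p = 0.427). Psmf1, or PI31, which binds the core and inhibits it in vitro, was at 27.1 to 29.9 CPM in vehicle and 27.4 to 28.6 CPM in bilirubin cultures, with a value of -0.03 (interval -0.14 to 0.08).

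**Figure D3:**
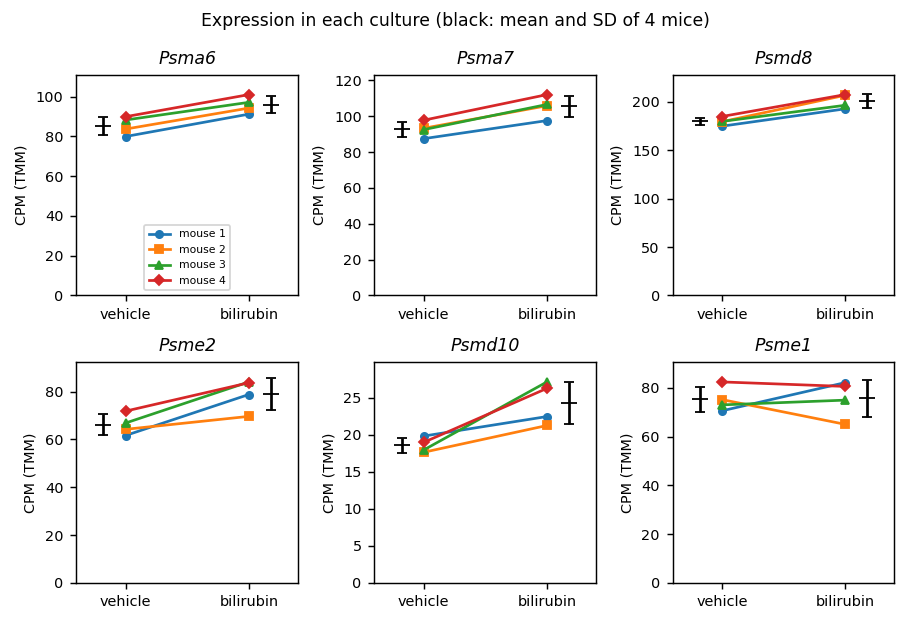
TMM-scaled CPM (y axis, from 0) of the 5 called genes and Psme1 in each culture, with a line joining the vehicle and bilirubin cultures of a mouse and black marks for the mean and SD of 4 mice. The lines of Psma6, Psma7, Psmd8, Psme2 and Psmd10 rise in all 4 mice, whereas those of Psme1 cross.

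Among the 7 assembly chaperones only Psmd10 passed, beside 7.53% of all tested genes, and it had the largest fold change of the 5 called genes. Psmd10 encodes gankyrin, a chaperone of the ATPase base that also binds CDK4 and the p53 ligase MDM2 (chrX:139847687-139857477, minus strand). It stood at 19.8, 17.6, 18.0 and 18.98 CPM in vehicle and at 22.5, 21.3, 27.2 and 26.3 CPM in bilirubin cultures. The groups did not overlap, and the log2 differences of 0.18, 0.27, 0.60 and 0.47 were larger in mice 3 and 4. The fold change was 0.38 (SE 0.08, interval 0.21 to 0.55), or 1.30-fold, with an edgeR adjusted p of 0.0194, and 8 of 12 alternatives passed.

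The other chaperones of the base, Psmd5 and Psmd9, had log2 fold changes of 0.06 (interval -0.05 to 0.17) and -0.05 (interval -0.18 to 0.08). The PAC chaperones of the alpha ring, Psmg1 to Psmg4, ran from -0.07 for Psmg2 to 0.09 for Psmg1 and did not pass. Psmg2 was at 14.1, 13.6, 13.2 and 14.6 CPM in vehicle and at 11.1, 14.6, 14.0 and 13.3 CPM in bilirubin cultures, with the lowest value in mouse 1.

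The tissue-restricted subunits were scarce. Psma8, the testis form of alpha 4, had 32 to 95 counts per library and a log2 fold change of 0.48 (interval 0.00 to 0.96, edgeR adjusted p = 0.237). Psmb11, the thymus form of beta 5, had 0 to 4 counts and was not tested. Psmc3ip and Psme3ip1 had values of 0.00 and 0.03.

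Levels were compared between genes in TPM (abundance corrected for transcript length and library size). In vehicle cultures the 14 core subunits ran from 73.1 ± 1.19 TPM (SD, n = 4) for Psma5 to 418.5 ± 12.3 TPM for Psmb6, a 5.72-fold range, around a median of 156 TPM. The 17 cap subunits ran from 84.0 ± 2.84 TPM for Psmd11 to 268 ± 5.11 TPM for Psmd2, a 3.19-fold range, around a median of 113 TPM. Thus 11 of 14 core and 15 of 17 cap subunits were within 2-fold of the median of their particle, although the finished particle holds each in equal number.

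In the order of levels, Psmb6 stood apart from the next subunits, Psmb2 (198 TPM), Psma7 (196 TPM) and Psmb4 (193 TPM), whose vehicle ranges overlapped each other. At the other end Psma2 (75.1 TPM) and Psma5 overlapped and lay below Psmb1 (95.6 TPM). In the cap, Psmd2, the scaffold that holds ubiquitin shuttles, and Psmd8 (231 ± 4.91 TPM) did not overlap and lay above all others, followed by Psmc1 (167 TPM) and Psmc3 (159 TPM), which overlapped. Subunits from Psmc4 (121 TPM) to Psmd4 (113 TPM) overlapped their neighbours in that order, as did those from Psmc5 (104 TPM) to Psmd12 (96.5 TPM).

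Of the activators, Psme2 was at 138 ± 10.1 TPM and Psme1 at 131 ± 8.43 TPM, levels that overlapped. Psme3 was at 83.7 ± 2.03 TPM and Psme4 at 29.2 ± 0.725 TPM. The 7 chaperones matched by symbol were lower than every core and cap subunit, from 23.1 ± 1.5 TPM for Psmd10 to 51.3 ± 4.67 TPM for Psmg4. With bilirubin Psmd10 was at 29.1 ± 3.24 TPM and Psme2 at 166 ± 17.0 TPM.

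**Figure D4:**
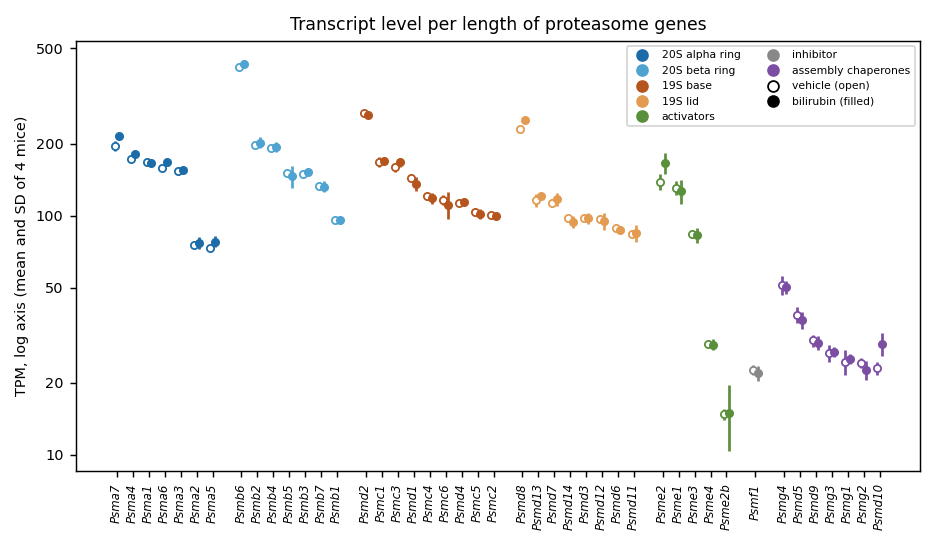
Level per length in TPM (y axis, log scale) of the tested subunits, regulators and chaperones, as mean and SD of 4 mice, open for vehicle and filled for bilirubin. Psmb6 tops the core at 418.5 TPM in vehicle, most core and cap subunits lie near 100 to 200 TPM, and the chaperones lie below 60 TPM.

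Summed over the 31 core and cap subunits, the level was 4552 ± 68.5 TPM in vehicle and 4620 ± 97.3 TPM in bilirubin cultures. The ratio of summed core to summed cap TPM was 1.05, 1.04, 1.05 and 1.07 with vehicle, in the order of the mice, and 1.09, 1.03, 1.09 and 1.08 with bilirubin. It was higher with bilirubin in mice 1, 3 and 4 and lower in mouse 2, and the groups overlapped.

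Transcript estimates showed that 24 of the 47 tested members drew over 90% of their TPM from a single transcript, and 14 less than 70%. Psma6, Psma7 and Psmd8 were in the first class, with 93.6%, 94.3% and 97.5% in vehicle and 98.6%, 95.25% and 96.9% in bilirubin cultures. The share of the main transcript did not overlap between groups for 3 of the 46 tested members with several transcripts (Psmc2, Psmc3 and Psmg3, or 6.52%), beside 2.61% of all such tested genes. These 3 were chosen after their values were seen and not tested. Psmc3 (Rpt5) drew 83.8% ± 1.26 from its main transcript in vehicle and 74.8% ± 3.11 in bilirubin cultures. The log2 fold change of the whole gene was 0.03, and 0.00 to 0.11 across the 12 alternatives. Psmg3 drew 96.2% ± 3.61 and 87.1% ± 1.60, and Psmc2 99.9% in both groups.

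Exons of Psma6, Psma7, Psmd10 and Psme2 overlap exons of genes on the opposite strand (for Psma7, 132 bases of Ss18l1, and for Psme2, 731 bases of Rnf31), and those of Psme1 overlap 1204 bases of Emc9. Whether reads were counted by strand is not given in the sources used here, so reads of these stretches cannot be told apart. No such overlap was found for Psmd8.

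The catalytic subunits were set beside their interferon-inducible counterparts, which are not members. In TPM, Psmb8 made up 58.1% ± 1.82 (SD, n = 4) of the sum of Psmb5 and Psmb8 in vehicle and 59.1% ± 3.76 in bilirubin cultures. Psmb10 made up 28.7% ± 1.71 and 30.1% ± 3.63 of its pair with Psmb7, and Psmb9 6.09% ± 0.597 and 6.25% ± 1.30 of its pair with Psmb6. The group means differed by less than the SD within either group for each pair, a comparison that leaves out the pairing by mouse. Within mice, the Psmb8 and Psmb9 shares rose in mouse 1 and fell in mice 2, 3 and 4. The Psmb10 share rose in mice 1 and 2 and fell in mice 3 and 4.

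Mouse 1 again stood apart, with the highest bilirubin share of each pair (64.7%, 35.5% and 8.13%), whereas the shares of the other bilirubin cultures were 56.9% to 57.4% for Psmb8, 27.6% to 29.0% for Psmb10 and 5.11% to 5.96% for Psmb9. None of the 3 was called by edgeR, DESeq2 or limma voom, beside 7.53% of all tested genes with edgeR. None had an unadjusted edgeR p under 0.05, beside 20.8% of all tested genes. Their log2 fold changes were 0.07 for Psmb8, 0.10 for Psmb9 and 0.18 for Psmb10. Of a list of 8 interferon-inducible presentation genes, Tapbp, B2m and Gbp2 were called higher and 0 lower, beside 4.49% and 3.04% of all tested genes. The 8 genes had median differences of 0.50, 0.01, 0.27 and 0.24 in mice 1 to 4. Beside the list, Psme2 differed by 0.35, 0.12, 0.33 and 0.22 in mice 1 to 4, and Psme1 by 0.22, -0.21, 0.04 and -0.03. The part of interferon-inducible expression in the value of Psme2 was not tested.

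**Figure D5:**
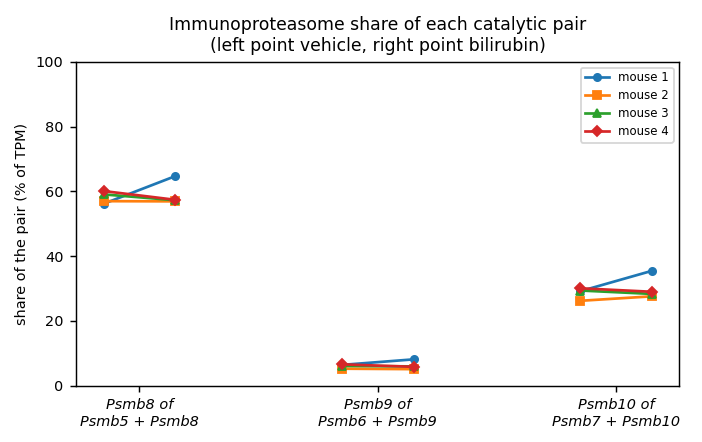
Share of each catalytic pair's TPM (y axis, in percent) that came from the interferon-inducible subunit, in the vehicle (left point) and bilirubin (right point) culture of each mouse. The lines of mice 2, 3 and 4 are nearer to flat, while mouse 1 rises in all 3 pairs, to 64.7% for Psmb8.

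The list of ubiquitin-proteasome partners held 30 genes that are no members, such as ubiquitin shuttles, cap-bound enzymes and the factors that drive proteasome genes. Of the 29 tested, 1 was called higher and 0 lower, beside 4.49% and 3.04% of all tested genes. Their median log2 fold change was 0.01. The called gene was Nfe2l2, or NRF2 (chr2:75504739-75534985, minus strand), at 170.0, 174, 168 and 169 CPM in vehicle and 208, 187, 185 and 198 CPM in bilirubin cultures. The groups did not overlap, and its fold change was 0.19 (SE 0.04, interval 0.10 to 0.28, edgeR adjusted p = 0.0262).

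Nfe2l2 passed in 7 of 12 alternatives. Without mouse 1 the list had 5 called genes (Ecpas, Zfand5, Rad23b, Rps27a and Nfe2l2, beside 13.9% of all genes), and without mouse 2, 3 or 4 it had 0 (beside 4.58%, 2.75% and 3.21%), with 3, 2 and 3 at an unadjusted p under 0.05. Nfe2l1, the factor that restores proteasome expression when the protease is inhibited, had a value of -0.02 (interval -0.11 to 0.07). Adrm1 (Rpn13, a ubiquitin receptor of the cap), Sem1 (a small lid subunit) and Pomp (a chaperone that matures the core), which the symbol rule misses, had values of 0.03 (interval -0.05 to 0.11), 0.07 (interval -0.02 to 0.15) and 0.06 (interval -0.02 to 0.13).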

How the data were processed

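Poly(A) RNA of 8 BMDM cultures, a vehicle and a bilirubin culture from each of 4 mice, was analysed. Per the study's methods and the submitters' processing notes, the authors trimmed reads with Trim Galore 0.6.7 and cutadapt 3.4, aligned them with STAR 2.7.9a to GRCm39 and quantified transcripts with Salmon 1.10.1 and tximport. The authors deposited a gene table of estimated counts (expected counts, neither scaled for depth nor for length) and, for each library, estimated counts and TPM of transcripts. Levels in TPM are sums over a gene's transcripts.

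Rounded counts were compared with edgeR 4.0.16 in R 4.3.3 (TMM, filterByExpr on treatment with a minimum count of 10 and total of 15, a model of mouse and treatment, quasi-likelihood test), adjusted by the Benjamini-Hochberg method over 13722 genes at a threshold of 0.05. Differences within mice used log2 CPM with a prior count of 2. Standard errors were the fold change over the root of F. Alternatives were DESeq2 1.42.0, limma 3.58.1 voom, DESeq2 size factors, library size alone, no filter, a CPM above 1 in 4 samples, an offset for transcript length, treatment alone and each mouse left out.

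Mouse numbers pair the cultures, since the labels give the same mouse for both. Deviations of paired cultures correlated at 0.11, 0.13, 0.11 and -0.01 for mice 1 to 4. The highest correlation of each vehicle culture with the bilirubin culture of another mouse was -0.03, -0.02, 0.08 and 0.06. In mouse 4 the paired value was thus below that with another mouse. Libraries held at least 34142781 counts, and standard errors were larger for members with few counts. Scripts were tested on simulated data whose changes were larger than those of the called members. Recovery of changes as small as theirs was not tested.

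Members and lists were chosen with earlier results of these data known. Named with values were the members called, the highest and lowest of each class, the catalytic subunits, activators, Psmf1, Psmb8 to Psmb10, called partners, Adrm1, Sem1, Pomp and Nfe2l1. The others named were added after their values were seen. Positions are from GENCODE on GRCm39.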

Additional observations from a re-analysis of the deposited data

How the results depend on the processing

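Over 301 fold changes of single genes under an alternative, 253 kept direction and side of the threshold, 27 lost the threshold (22 of called members, the rest of Nfe2l2) and 21 reversed. The 5 called members kept a positive fold change in each of 61 comparisons, of which 22 lost the threshold. These genes were picked as higher in the same libraries, and in all 4 mice. The kept direction is therefore no independent support. Genes called numbered 1033, and 1692 with no filter, 579 with an offset for transcript length and 377 to 1910 with a mouse left out. Members called fell from 5 to 1 (Psme2) with the length offset (4.22% of all genes called), and ran from 0 to 8 with a mouse left out. Partners called fell from 1 to 0 with library size alone and with the length offset (5 and 4 at an unadjusted p under 0.05), and ran from 0 to 5 with a mouse left out. Without the pairing by mouse (no replicate block), 686 genes and 2 members (Psmd10 and Psmd8) were called. The pairing is by animal. The cause of these shifts was not tested.

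The log2 fold changes that reversed were near zero. With library size alone they were -0.0071 for Psmb5, -0.022 for Psmd6 and -0.022 for Psme1. With no filter they were -0.00019 for Psmd6 and -0.00041 for Psme1, and with the length offset -0.0076 for Psmb5, -0.0047 for Psme1, 0.023 for Psme3 and 0.0014 for Psmf1. With a mouse left out they ran from -0.0272 to 0.0885 for Psmb5, -0.0589 to 0.0291 for Psmc6, -0.00558 to 0.0177 for Psmd6, -0.0686 to 0.0739 for Psme1, -0.129 to 0.0145 for Psmg2, -0.0423 to 0.0135 for Nfe2l1, -0.00502 to 0.112 for Psmb8 and -0.0418 to 0.171 for Psmb9. The ratio of highest to lowest level was 5.72 in the core and 3.14 in the cap on CPM per kilobase. Summing Psme2 and Psme2b was added after seeing the data. At 0 to 4 counts Psmb11 could not be tested, and the limit set by depth was not tested for other members.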
